A study of Mus musculus with 16 samples.

Results

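De novo lipogenesis in the mouse thyroid was followed through 10 genes: Mlxipl, which encodes the carbohydrate-responsive transcription factor ChREBP, Srebf1, which encodes SREBP1, and Acly, Acss2, Acaca, Fasn, Scd1, Elovl6, Me1 and Thrsp. They were taken by gene symbol from a table of 21640 genes, and all 10 were found and tested at both time points. Male C57Bl/6J wild-type mice were given a control diet (CD) or a lard-based high-fat diet with sucrose in the drinking water (HF+SD) from 8 weeks of age. Whole thyroids were collected after 3 weeks (3W) or 6 weeks (6W), with 1 bulk RNA-seq library per mouse and 4 mice in each of the 4 groups. No group carried an engineered allele or a drug, and diet was the only difference named between groups of the same week. The mice were CD 6W M22, M43, M45 and M48, HF+SD 6W M5, M18, M34 and M35, CD 3W M53, M54, M55 and M96, and HF+SD 3W M7, M19y, M20y and M31.

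De novo lipogenesis turns carbohydrate carbon into fatty acids. Cytosolic acetyl-CoA is made from citrate by Acly or from acetate by Acss2, carboxylated to malonyl-CoA by Acaca and joined into palmitate by Fasn, with NADPH supplied in part by Me1. Elovl6 lengthens the product and Scd1 puts in a double bond. ChREBP responds to glucose metabolites and SREBP1 to insulin and sterols, and both activate most of these enzymes in liver and adipose tissue. ChREBP is made from separate promoters as a longer alpha and a shorter beta form, and gene-level counts do not separate the forms.

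The windows before the transcription start are shown for 4 of the genes with the largest falls, Mlxipl, Fasn, Acss2 and Thrsp, so that the letters upstream of genes that fell together can be read side by side. They are the 250 bases before each start in RefSeq (GRCm38.p6), where 9 of the 10 genes had a window, with 13 starts in all. Mlxipl had 2 starts on the plus strand, 17001 bases apart, with windows at chr5:135089640-135089889 and chr5:135106641-135106890. The Fasn window was at chr11:120824548-120824797 on the minus strand, that of Acss2 at chr2:155517793-155518042 on the plus strand and that of Thrsp at chr7:97417551-97417800 on the minus strand. Capitals mark, on either strand, an E-box (CACGTG), a sterol regulatory element (TCACNCCAC) or a CCAAT box (CCAAT), and each sequence runs 5′ to 3′ towards its gene.
Mlxipl upstream start: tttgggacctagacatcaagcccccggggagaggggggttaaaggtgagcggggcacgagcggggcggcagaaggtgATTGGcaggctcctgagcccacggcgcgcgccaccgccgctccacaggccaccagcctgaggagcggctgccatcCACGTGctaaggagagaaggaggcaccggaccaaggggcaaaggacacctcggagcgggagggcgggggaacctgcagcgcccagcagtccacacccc
Mlxipl downstream start: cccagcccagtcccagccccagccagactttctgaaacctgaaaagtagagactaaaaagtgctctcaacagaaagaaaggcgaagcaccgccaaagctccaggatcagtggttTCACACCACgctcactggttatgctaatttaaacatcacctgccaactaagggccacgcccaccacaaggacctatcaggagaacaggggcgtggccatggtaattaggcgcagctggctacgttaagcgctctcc
Fasn: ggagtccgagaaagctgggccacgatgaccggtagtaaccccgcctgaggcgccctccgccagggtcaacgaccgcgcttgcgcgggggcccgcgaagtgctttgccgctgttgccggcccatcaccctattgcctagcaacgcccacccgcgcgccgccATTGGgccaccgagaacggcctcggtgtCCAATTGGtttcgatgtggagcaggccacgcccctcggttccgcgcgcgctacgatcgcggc
Acss2: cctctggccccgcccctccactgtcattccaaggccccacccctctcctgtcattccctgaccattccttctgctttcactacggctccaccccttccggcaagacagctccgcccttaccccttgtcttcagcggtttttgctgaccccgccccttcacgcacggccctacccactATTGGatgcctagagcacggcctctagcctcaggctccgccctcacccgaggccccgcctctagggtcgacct
Thrsp: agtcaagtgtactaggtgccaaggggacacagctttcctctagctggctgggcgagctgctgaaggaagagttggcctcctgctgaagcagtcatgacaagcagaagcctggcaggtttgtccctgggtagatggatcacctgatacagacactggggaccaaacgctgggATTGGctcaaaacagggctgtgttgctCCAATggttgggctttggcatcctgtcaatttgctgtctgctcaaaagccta

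The E-box, a core recognised by ChREBP, SREBP1 and many other factors, was matched once among the 13 windows, 98 bases before the upstream Mlxipl start. Of all 32851 RefSeq windows of this length, 6.02% held one. A sterol regulatory element was matched 136 bases before the downstream Mlxipl start, against 1.05% of all windows. CCAAT, the core bound by the factor NF-Y, was matched in 7 of the 13 windows and in 33.8% of all windows, and 2 of the 3 Fasn matches, 62 and 59 bases before the start, share bases. The longer carbohydrate response element was matched in none of the 13 windows and in 0.0974% of all windows. These matches describe letters in short windows and were not tested as binding sites.

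At 6 weeks 7 of the 10 genes fell on HF+SD, Mlxipl, Acly, Acss2, Acaca, Fasn, Scd1 and Thrsp, and none rose. The same 7 genes fell at 3 weeks, again with none that rose. A call is an adjusted p under 0.05 from edgeR's quasi-likelihood test, with Benjamini-Hochberg adjustment over all tested genes, and every adjusted p below is of that kind. Of all tested genes, 9.55% were called lower at 6 weeks and 5.78% at 3 weeks, and 12.0% and 9.07% were called higher. At an unadjusted p under 0.05, 9 of the 10 genes were lower at 6 weeks and 8 at 3 weeks, and neither edgeR nor DESeq2 called any higher. The share of all genes at an unadjusted p was not counted, so counts at that threshold, here and below, have no background. All 7 fell by more than 1 on the log2 scale at both weeks, as did 6.01% of tested genes at 6 weeks and 1.4% at 3 weeks. The median log2 fold change of the 10 genes was -2.05 at 6 weeks and -1.44 at 3 weeks, against -0.011 and -0.0083 over all tested genes. Levels are CPM, a gene's counts scaled to a common library size after TMM normalization (trimmed mean of M-values) of the libraries of that week. In bulk tissue, fewer cells of a type and less RNA per cell cannot be told apart.

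**Figure D1:**
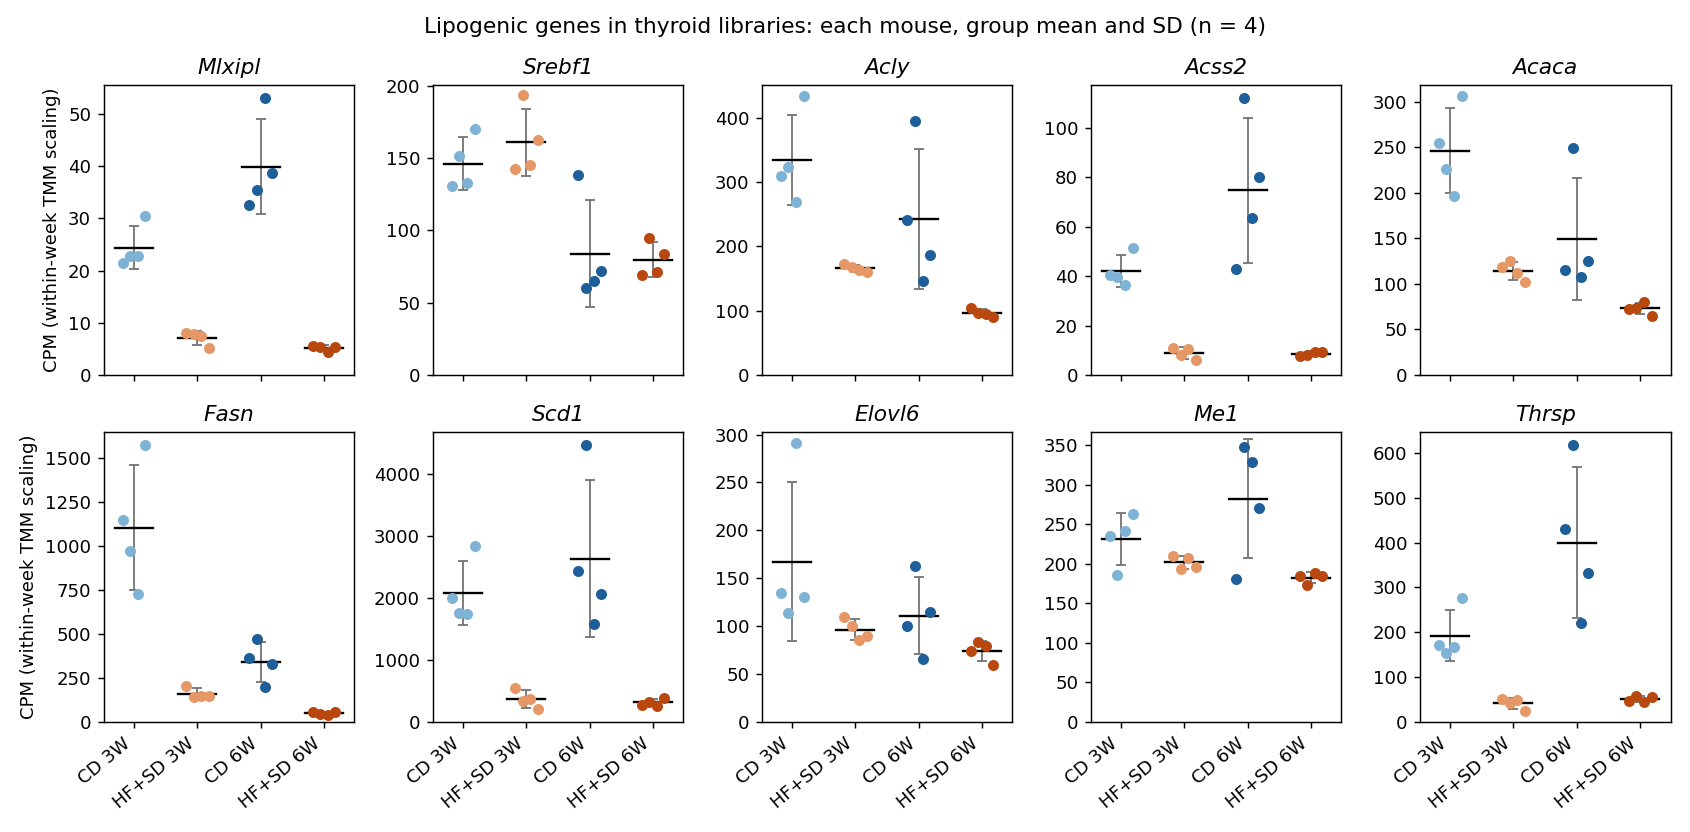
CPM (y axis, linear from 0, scaled within each week) of the 10 genes in each group (x axis). Each point is a mouse, black lines are means and grey bars SD (n = 4). Mlxipl, Acly, Acss2, Acaca, Fasn, Scd1 and Thrsp show no overlap between the diets at either week, while Srebf1 overlaps at both.

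Mlxipl (ENSMUSG00000005373.14), the ChREBP gene, was at 32.5, 35.5, 53.1 and 38.6 CPM in the CD 6W mice M22, M43, M45 and M48, and at 5.51, 5.42, 4.45 and 5.29 CPM in the HF+SD mice M5, M18, M34 and M35. The lowest CD mouse therefore stood well above the highest HF+SD mouse, and the spread within HF+SD was narrow. The log2 fold change was -2.95 ± 0.19 (SE, adjusted p = 0.000103). In the CD 3W mice M53, M54, M55 and M96 it was at 21.4, 22.8, 22.8 and 30.5 CPM, and in the HF+SD 3W mice M7, M19y, M20y and M31 at 8.04, 7.83, 7.50 and 5.12 CPM. Again the groups were apart, with M96 the highest of the CD mice. The log2 fold change at 3 weeks was -1.78 ± 0.17 (adjusted p = 0.000366).

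Srebf1, which encodes SREBP1, did not pass the test at either week. The CD 6W mice had 138.5, 60.2, 64.6 and 72.0 CPM in the order above, and the HF+SD 6W mice 68.9, 94.9, 71.4 and 83.8 CPM. M22 was far above the other CD mice, and the remaining 3 CD mice lay inside or just below the HF+SD range. The log2 fold change was -0.07 ± 0.27 (adjusted p = 0.873), and without M22 it was 0.29 (adjusted p = 0.177). With the mean of skeletal muscle genes as a covariate it was -0.53 (adjusted p = 0.1135). Over all settings other than leaving out 1 mouse it ran from -0.80 to 0.68. At 3 weeks the means were 146 ± 18.5 CPM (SD) on CD and 161 ± 23.3 on HF+SD, a log2 fold change of 0.14 ± 0.12 (adjusted p = 0.478). These intervals leave room for changes of either sign, and transcript counts say nothing of SREBP1 cleavage, which activates the protein.

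Among the genes of acetyl-CoA supply, Acss2, the cytosolic acetyl-CoA synthetase that uses acetate, changed most. It stood at 42.8, 112, 63.7 and 80.1 CPM in the CD 6W mice and at 7.81, 7.96, 9.48 and 9.43 CPM on HF+SD. M22 was the lowest and M43 the highest CD mouse, and each was several-fold above every HF+SD mouse (log2 fold change -3.11 ± 0.28, adjusted p = 0.000230). The 3W values were 40.5, 39.8, 36.5 and 51.3 CPM on CD and 11.0, 8.09, 10.4 and 5.86 CPM on HF+SD. The 3-week log2 fold change was -2.25 ± 0.20 (adjusted p = 0.000255).

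Acly, the ATP citrate lyase, fell less. Its CD 6W values were 241, 395, 147 and 187 CPM and its HF+SD 6W values 104.5, 97.0, 95.3 and 90.9 CPM, with M43 again the highest (log2 fold change -1.32 ± 0.28, adjusted p = 0.0119). Its 3W mean went from 335 ± 70.3 to 166 ± 5.40 CPM (log2 fold change -1.01 ± 0.13, adjusted p = 0.00130). The SD of the HF+SD mice was under 10 CPM at both weeks, and the wider spread was that of the CD mice.

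Acaca, acetyl-CoA carboxylase, stood at 115, 249, 108 and 125 CPM on CD 6W and at 72.8, 74.1, 80.0 and 65.2 CPM on HF+SD 6W. M43 was about double the other CD mice, which were themselves above every HF+SD mouse. Its log2 fold change was -1.03 ± 0.26 (adjusted p = 0.0239), and -0.70 without M43 (adjusted p = 0.0109). The call was lost when any of the HF+SD 6W mice was left out (adjusted p 0.0593 to 0.0695), with the log2 fold change between -0.97 and -1.07. Its 3W means were 246 ± 46.8 and 115 ± 9.96 CPM, a log2 fold change of -1.11 ± 0.13 (adjusted p = 0.000856) that was called with each mouse left out in turn.

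Fasn, the fatty acid synthase itself, stood at 363, 471, 200 and 329 CPM in the CD 6W mice and at 56.1, 47.2, 38.9 and 55.4 CPM on HF+SD. At 3 weeks it stood at 1149, 975, 726 and 1574 CPM on CD and at 204.5, 139, 150 and 149.5 CPM on HF+SD. The groups did not overlap at either week, and M7 was the highest HF+SD 3W mouse. The log2 fold changes were -2.79 ± 0.27 at 6 weeks (adjusted p = 0.000288) and -2.78 ± 0.23 at 3 weeks (adjusted p = 0.000218). Of 17238 genes tested at 3 weeks, 6 had a lower log2 fold change than Fasn.

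Thrsp, also called Spot 14, is a thyroid hormone-responsive gene whose product supports fatty acid synthesis in lipogenic tissues. It was at 430, 617.5, 220 and 333 CPM on CD 6W and at 47.5, 57.0, 44.96 and 55.4 CPM on HF+SD 6W (log2 fold change -2.96 ± 0.30, adjusted p = 0.000391). The CD 3W values were 171, 155, 168 and 276 CPM and the HF+SD 3W values 51.3, 42.1, 48.7 and 24.7 CPM (log2 fold change -2.21 ± 0.25, adjusted p = 0.000756). No HF+SD mouse came near the lowest CD mouse at either week.

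Scd1, stearoyl-CoA desaturase 1, had the highest level per exonic kilobase of the 10 genes in every group. Its CPM per kilobase was 539 ± 260 (SD) on CD 6W, 64.2 ± 11.9 on HF+SD 6W, 427 ± 106 on CD 3W and 75.2 ± 28.5 on HF+SD 3W. Mlxipl and Acss2 were the lowest pair on this scale in every group, at 7.21 and 7.35 on CD 6W and 0.933 and 0.853 on HF+SD 6W. A length here is that of all annotated exons of a gene merged, 10163 bases for Acss2, so ranks on this scale depend on the annotation. In CPM, Scd1 went from 2434, 4473, 1579 and 2067 in the CD 6W mice to 276, 328, 262 and 390 on HF+SD (log2 fold change -3.07 ± 0.34, adjusted p = 0.000592). At 3 weeks it went from 2007, 1762, 1745 and 2842 to 546, 340, 377 and 207 CPM (log2 fold change -2.51 ± 0.28, adjusted p = 0.000672). Its close paralog Scd2, to which some reads could be assigned either way, was at 245 ± 68.8 and 297 ± 53.5 CPM at 6 weeks and had log2 fold changes of 0.28 ± 0.22 and -0.03 ± 0.13 (adjusted p = 0.404 and 0.910), so Scd2 was called in neither direction.

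Elovl6, the elongase that acts on palmitate, and Me1, malic enzyme, had lower means on HF+SD without passing the test. Elovl6 ranged from 65.7 to 163 CPM on CD 6W and from 59.2 to 83.0 on HF+SD 6W, overlapping (log2 fold change -0.59 ± 0.25, adjusted p = 0.124). At 3 weeks every HF+SD mouse was below every CD mouse, at 85.4 to 109 against 114 to 291 CPM. Its log2 fold change was -0.80 ± 0.27 (adjusted p = 0.0747), and without M55, the mouse at 291 CPM, it was -0.39 and past the threshold (adjusted p = 0.0205). Me1 was at 180.5, 348, 329 and 271 CPM in the CD 6W mice and 173 to 189 CPM on HF+SD. M22 lay inside the HF+SD range and the other CD mice above it (log2 fold change -0.63 ± 0.20, adjusted p = 0.0540, and -0.79 with adjusted p = 0.00312 without M22). The 3W difference of Me1 was -0.20 ± 0.10 on the log2 scale, with an adjusted p of 0.234.

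Counting overlap alone, every HF+SD mouse was below every CD mouse for 7 of the 10 genes at 6 weeks and 8 at 3 weeks, against 9.97% and 10.5% of all tested genes. Together the 10 genes held 0.203% to 0.718% of the counts of a CD 6W library and 0.0938% to 0.109% of an HF+SD 6W library. At 3 weeks the shares were 0.351% to 0.619% and 0.108% to 0.157%.

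**Figure D2:**
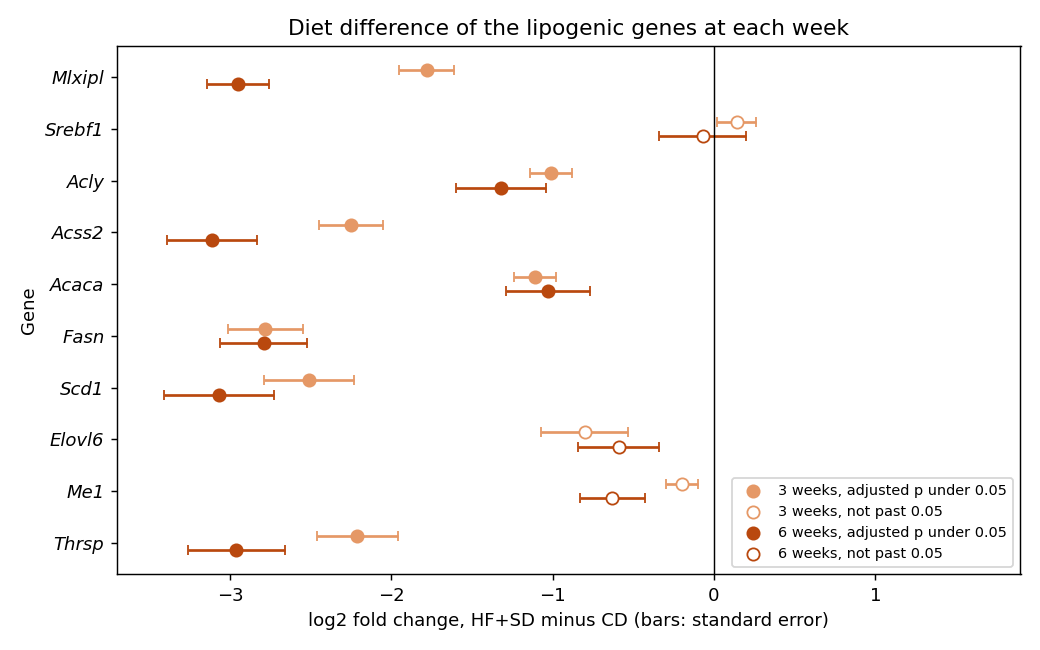
Log2 fold change of HF+SD against CD (x axis) for the 10 genes (y axis) at 3 and 6 weeks, with standard errors. Filled points passed an adjusted p of 0.05. The 7 filled genes lie below -1 at both weeks, and Srebf1 lies near 0.

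Whether the falls differed between 3 and 6 weeks was asked with a diet-by-week term over all 16 libraries. None of the 10 genes passed an adjusted p of 0.05 in edgeR, where 0.0792% of all tested genes did. At an unadjusted p under 0.05 there were 3, Mlxipl, Acss2 and Me1, and DESeq2 called 1, Mlxipl, with 8.3% of all genes called. The 6-week fold change of Mlxipl was lower than its 3-week fold change by 1.23 ± 0.26 on the log2 scale (adjusted p = 0.0524). The corresponding differences were -0.90 ± 0.34 for Acss2 (adjusted p = 0.130), -0.80 ± 0.39 for Thrsp (adjusted p = 0.237) and -0.48 ± 0.23 for Me1 (adjusted p = 0.220). For Fasn the difference was -0.05 ± 0.35 (adjusted p = 0.956), and its sign changed with the settings. Without M22 the term was called for Mlxipl, Acss2 and Me1 (adjusted p 0.00476, 0.0188 and 0.0151), where 14.1% of all tested genes were called. Without M43 it was called for Mlxipl (adjusted p = 0.0308), where 6.7% were. The CD 6W mouse with the least muscle RNA was M22. With the mean of skeletal muscle genes as a covariate, the term was called for 0 of 18929 genes. In that fit the difference of Me1 was 0.06. The diet-by-week fit was normalized over all 16 libraries together, whereas CPM values and the fits of a single week were normalized within that week. The library names of the 2 weeks begin with different numbers, so levels were not tested between weeks.

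The 16 libraries held 30025256 to 48508653 counts. Thyrocyte markers such as thyroglobulin were detected in every library and took 27.4% to 30.3% of counts on CD 3W, 28.4% to 30.7% on HF+SD 3W, 4.91% to 11.9% on CD 6W and 10.6% to 14.9% on HF+SD 6W. The CD 6W libraries stood apart by skeletal muscle: 30 muscle genes took 0.103% of counts in M22 and up to 16.1% in the other CD mice, against 0.123% to 0.446% on HF+SD, and 28 of 29 tested fell. At 3 weeks muscle genes were under 0.01% of counts in every library. M22 stood apart by parathyroid genes. The 3 parathyroid markers took 1.71% of its counts, 0.156% to 0.451% in the other CD 6W mice and 0.0507% to 0.206% on HF+SD 6W. None of the 3 was called at either week. Endothelial markers rose at both weeks (5 of 5 each), and 3 of 4 C cell markers fell at both weeks. Of 6 macrophage markers, 5 rose at 6 weeks and none at 3 weeks. Beside these marker counts, 12.0% of all tested genes were called higher and 9.55% lower at 6 weeks, and 9.07% and 5.78% at 3 weeks. The 3 salivary genes were higher on HF+SD in mean level at both weeks. Their sum was 1278 CPM in M43, 0.832 to 2.70 CPM in the other CD 6W mice and 1431 to 4056 CPM on HF+SD 6W.

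Fat markers moved with the lipogenic genes. Of 12 white adipocyte markers, 8 fell at 6 weeks and 8 at 3 weeks, where 9.55% and 5.78% of all tested genes were called lower. The 12 markers had medians of -1.15 and -0.96 (log2), and none was at 0 in any library. Their summed share was 0.268% to 0.646% on CD 6W against 0.0903% to 0.159% on HF+SD 6W, and 0.158% to 0.218% against 0.0535% to 0.115% at 3 weeks. Car3, which is also a muscle gene, made up much of the CD 6W sum (588 to 7793 CPM), and without it the 6-week shares overlapped, at 0.0869% to 0.209% on CD and 0.0592% to 0.108% on HF+SD. Fabp4, the adipocyte fatty acid carrier, went from 1028 ± 230 to 376 ± 114 CPM at 6 weeks (log2 fold change -1.45, adjusted p = 0.00622). Of 7 brown adipocyte markers, 6 fell at 6 weeks and 5 at 3 weeks, with medians of -2.84 and -1.78, and none was at 0. Ucp1, the uncoupling protein of brown fat, went from 284 ± 112 to 27.1 ± 23.5 CPM at 6 weeks (log2 fold change -3.39, adjusted p = 0.0111) and from 115 ± 54.7 to 27.2 ± 17.0 at 3 weeks (-2.08, adjusted p = 0.0309). The mean log2 CPM of either list did not overlap between the diets at either week, so adipocyte marker level and diet cannot be told apart by a fit on these mice.

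Set against the white adipocyte markers, 5 genes were still lower on HF+SD at each week, and others were higher. The log2 CPM of a gene minus the mean log2 CPM of the 12 markers was lower in every HF+SD mouse than in every CD mouse for Mlxipl, Acss2, Fasn, Scd1 and Thrsp at 6 weeks, and for the same 5 at 3 weeks, with or without Car3 among the markers. Of all tested genes, 0.427% and 0.226% did so, while 55.4% and 66.1% were higher in every HF+SD mouse. The differences at 6 weeks were -1.85, -1.96, -1.67, -1.91 and -1.81 in that order, and at 3 weeks -0.82, -1.32, -1.79, -1.61 and -1.27. Acly and Acaca overlapped on this scale, with differences of -0.16 and 0.12 at 6 weeks and -0.04 and -0.14 at 3 weeks. Srebf1 differed by 1.07 and 1.09 at 6 and 3 weeks, Me1 by 0.48 and 0.77, and Elovl6 by 0.54 and 0.25, and of these Srebf1 and Me1 were higher in every HF+SD mouse at 3 weeks.

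Set against the 7 brown adipocyte markers, which fell further, none of the 10 genes was lower in every HF+SD mouse at 6 weeks, and Scd1 was at 3 weeks (-0.95), against 0.0219% and 0.0348% of all tested genes. Srebf1, Acly, Acaca, Elovl6 and Me1 were higher in every HF+SD mouse at 6 weeks on this scale, and Srebf1 and Me1 at 3 weeks, against 90.1% and 88.3% of all tested genes. The 6-week differences were 2.51 for Srebf1, 1.98 for Elovl6, 1.92 for Me1, 1.56 for Acaca and 1.28 for Acly. Mlxipl differed by -0.41 and -0.16 at 6 and 3 weeks, Fasn by -0.23 and -1.13, Acss2 by -0.51 and -0.66, and Thrsp by -0.37 and -0.61, all with overlap.

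With the white adipocyte mean as a covariate, 1 of the 10 genes was called lower at 6 weeks, Mlxipl (log2 fold change -3.09, adjusted p = 0.0289), and none at 3 weeks. Of all tested genes, that fit called 0.0219% and 0.0058% lower. The other 6-week log2 fold changes were -2.69 for Acss2, -2.38 for Thrsp, -2.34 for Scd1, -2.27 for Fasn, -1.20 for Acly and -0.93 for Acaca, and 7 genes had an unadjusted p under 0.05 at 3 weeks. With the brown adipocyte mean none of the 10 was called at either week, where edgeR called 0 of 18249 genes at 6 weeks and 7 of 17238 at 3 weeks. At an unadjusted p under 0.05 there were 3 of the 10 at 6 weeks and 7 at 3 weeks, and Mlxipl was at -3.04 and Fasn at -2.02 at 6 weeks.

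**Figure D3:**
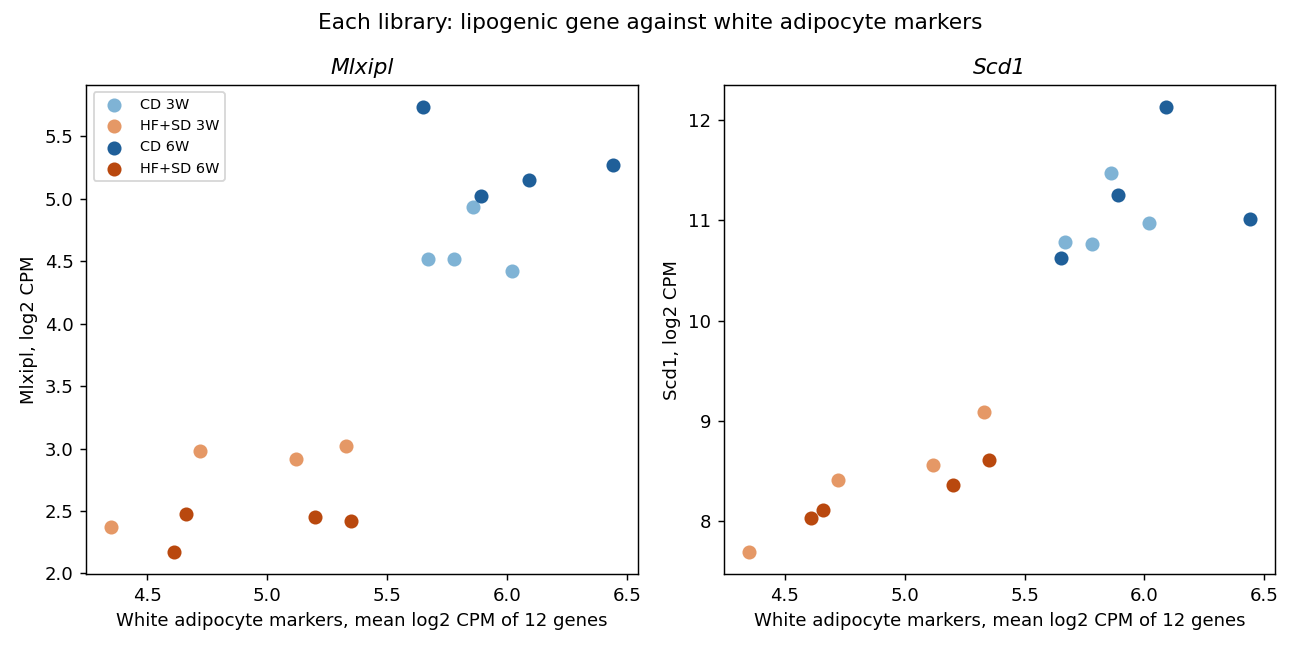
Log2 CPM of Mlxipl and Scd1 (y axes) against the mean log2 CPM of 12 white adipocyte markers (x axis) in each library, coloured by group. The diets occupy separate ranges on both axes. Within each HF+SD group Scd1 is higher where the markers are higher. Mlxipl is lowest in the HF+SD mouse with the lowest markers, M31 at 3 weeks and M34 at 6 weeks.

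Muscle values also stood beside some genes. M22, the CD 6W mouse with the least muscle RNA, had the lowest CD 6W values of Mlxipl (32.5 CPM), Acss2 (42.8 CPM) and Me1 (180.5 CPM). It had the highest of Srebf1. M45, the CD 6W mouse with the most muscle RNA, had the highest CD 6W value of Mlxipl (53.1 CPM). The same mouse had the lowest of Acly, Acaca, Fasn, Scd1, Elovl6 and Thrsp. With M22 as the only CD mouse at 6 weeks, 6 genes were called and Acaca was not (log2 fold change -0.66, adjusted p = 0.0650), with Mlxipl at -2.66 and Acss2 at -2.31, where 1.95% of all tested genes were called lower. With the muscle mean as a covariate, the same 6 were called and Acaca was again lost (log2 fold change -1.01, adjusted p = 0.0891), where 4.04% of all tested genes were called lower. In the first of these fits the lone CD mouse was assumed to vary like the HF+SD mice. That mouse, M22, also had the highest parathyroid share, so it differed from the HF+SD mice in more than diet. At 3 weeks, where muscle genes were nearly absent, 7 fell.

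After the group means were removed, some of the enzymes varied together across the 16 libraries and others did not. Pearson's r of log2 CPM was 0.94 for Scd1 and Thrsp, 0.88 for Acly and Acaca, 0.81 for Acly and Fasn and 0.77 for Fasn and Scd1, but 0.04 for Fasn and Me1, 0.09 for Fasn and Elovl6 and 0.17 for Elovl6 and Me1. Mlxipl did not follow them closely, with r from -0.30 with Elovl6 to 0.42 with Me1. Srebf1 and Me1 had r = -0.79. These are descriptions over libraries that share depth and tissue makeup. With the white adipocyte mean, r was 0.64 for Scd1, 0.57 for Thrsp, 0.24 for Mlxipl and 0.15 for Acaca. With the muscle mean it was 0.78 for Me1, 0.53 for Mlxipl, 0.50 for Acss2 and -0.71 for Srebf1. For the other genes r with the muscle mean lay between -0.22 and 0.13.

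Among 17024 genes, the 5 with the highest within-group r to Mlxipl were Dnph1 (0.87), Gm2830 (0.84), and Cox8b, Ndn and Gm11808 (0.80 each). Cox8b is among the brown adipocyte markers above, and fell by -3.67 ± 0.45 at 6 weeks and -1.37 ± 0.34 at 3 weeks (log2). The r of Mlxipl itself was 0.37 with the brown adipocyte mean and 0.53 with the muscle mean. Which tissue the Cox8b reads came from was not tested. The 5 most like Srebf1 were Fat1 (0.95), Prpf40b (0.94), Srsf4 and Abca2 (0.93 each) and Slc12a7 (0.92).

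Of 12 tested partners and other targets of ChREBP, 4 fell and 1 rose at 6 weeks and 2 fell at 3 weeks, with medians of -0.10 and -0.14 (9.55% and 5.78% of all tested genes were called lower). Mlx, the obligate partner of ChREBP, was at 30.4 ± 5.81 and 29.1 ± 1.32 CPM at 6 weeks (log2 fold change -0.06 ± 0.15, adjusted p = 0.806). The glucose-responsive target Txnip was at 657 ± 240.5 and 600 ± 135 CPM (log2 fold change -0.13 ± 0.31, adjusted p = 0.798). Gpd1, which makes glycerol 3-phosphate for triglyceride synthesis, fell at 6 weeks (log2 fold change -1.98 ± 0.21) and 3 weeks (-1.62 ± 0.19). Slc2a4, the insulin-regulated glucose transporter GLUT4 of fat and muscle, fell from 94.9 ± 70.4 to 6.17 ± 1.05 CPM at 6 weeks (-3.94 ± 0.58) and from 19.3 ± 6.15 to 5.28 ± 0.796 at 3 weeks (-1.87 ± 0.22). At 6 weeks Pnpla3, a lipid droplet protein, fell (-1.83 ± 0.25), as did the fructose transporter gene Slc2a5 at a low level (-1.24 ± 0.38).

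Of 14 tested genes that control SREBP, 1 rose and 1 fell at each week. Of all tested genes, 12.0% were called higher and 9.55% lower at 6 weeks, and 9.07% and 5.78% at 3 weeks. The counts of this list and of the lists that follow are to be read beside these shares. At 6 weeks Srebf2, which encodes the SREBP of cholesterol synthesis, rose from 29.4 ± 3.52 to 44.5 ± 4.08 CPM (log2 fold change 0.60 ± 0.13, adjusted p = 0.0138). Insig1, which holds SREBP in the ER and is itself an SREBP target, fell (-0.59 ± 0.16, adjusted p = 0.0299). At 3 weeks Ppargc1b, a coactivator, rose (1.06 ± 0.30) and the general factor gene Sp1 fell (-0.43 ± 0.08). Among 21 tested cholesterol synthesis and uptake genes, 2 rose and 3 fell at 6 weeks, and 2 rose and 1 fell at 3 weeks. Pmvk, phosphomevalonate kinase, fell at 6 weeks (-1.62 ± 0.20) and 3 weeks (-0.99 ± 0.23). At 6 weeks Hsd17b7 fell (-1.84 ± 0.46), and at 3 weeks Dhcr7 rose (0.75 ± 0.15).

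The other elongases and desaturases went both ways. Of 18 tested at 6 weeks, 5 rose and 2 fell, with a median of 0.34, and of 19 at 3 weeks, 1 rose and 2 fell. Fads1, the delta-5 desaturase of polyunsaturated fatty acids, rose at 6 weeks (0.95 ± 0.18) and 3 weeks (0.55 ± 0.09), and at 6 weeks so did the elongase genes Elovl2 (1.63 ± 0.28) and Elovl7 (1.13 ± 0.26). Elovl4, at under 1 CPM, fell at 6 weeks (-1.32 ± 0.29). Elovl3, an elongase of brown fat and skin, fell from 3.19 ± 2.09 to 0.0775 ± 0.0756 CPM at 3 weeks (adjusted p = 0.00322). It passed the expression filter only through the CD mice, so a fall was the only call it could give. At 6 weeks, at 1.22 CPM on CD and 0.0314 on HF+SD, Elovl3 was not tested. Hsd17b12, of the elongation cycle, fell slightly at 3 weeks (-0.33 ± 0.09). Scaling to thyrocyte genes instead of TMM put the median tested gene at -0.32 (6W) and 0.15 (3W) on the log2 scale, and differences below that size depend on the scaling.

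In acetyl-CoA and malonyl-CoA supply, 3 of 8 genes fell and 2 rose at 6 weeks, and 3 fell and 1 rose at 3 weeks. Acacb, the carboxylase isoform linked to fatty acid oxidation, fell from 58.5 ± 17.6 to 15.5 ± 3.67 CPM at 6 weeks (-1.92 ± 0.26) and by a like amount at 3 weeks (-1.74 ± 0.18). Pcx, pyruvate carboxylase, fell at both weeks (-1.72 ± 0.21 and -1.02 ± 0.11), as did Acss3 (-1.12 ± 0.17 and -1.24 ± 0.20). Acss1, the mitochondrial counterpart of Acss2, rose from 79.8 ± 10.8 to 209 ± 43.5 CPM at 6 weeks (1.39 ± 0.18, adjusted p = 0.00138) and from 116 ± 27.9 to 227 ± 13.3 at 3 weeks (0.97 ± 0.16, adjusted p = 0.00374), opposite to Acss2. Mid1ip1, the paralog of Thrsp, rose at 6 weeks (1.39 ± 0.28), with HF+SD mice from 61.8 to 141 CPM. At 3 weeks it had a lower mean on HF+SD without being called (-0.40 ± 0.20, adjusted p = 0.196).

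Of 9 tested genes of NADPH supply, 2 fell and none rose at 6 weeks, and 2 fell and 1 rose at 3 weeks. The pentose phosphate enzyme gene Tkt fell at both weeks (-1.36 ± 0.20 and -0.84 ± 0.14). At 6 weeks Me3, a mitochondrial malic enzyme gene, fell with overlapping groups (-1.33 ± 0.38), and at 3 weeks Rpia fell (-0.35 ± 0.10) and Me2 rose (0.35 ± 0.08). G6pdx, the first enzyme of the pentose phosphate route, was at 74.0 ± 21.7 and 64.3 ± 7.27 CPM at 6 weeks (log2 fold change -0.20 ± 0.20, adjusted p = 0.505).

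**Figure D4:**
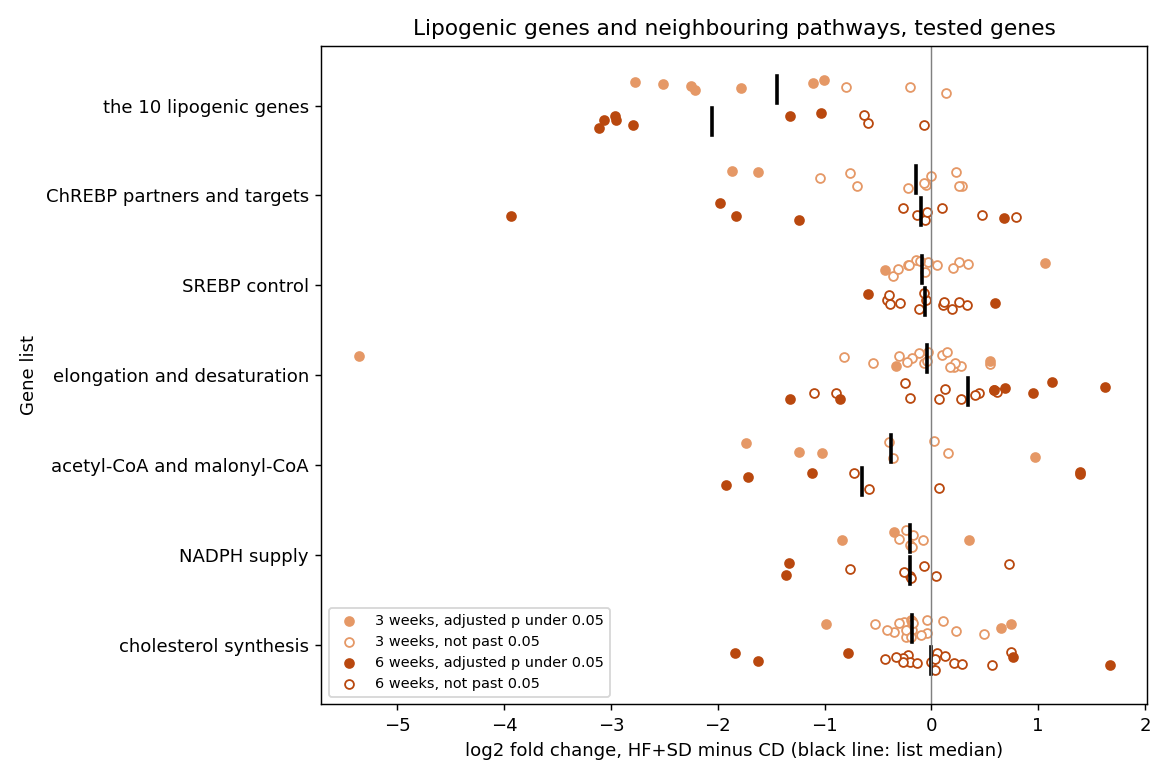
Log2 fold change of HF+SD against CD (x axis) for each tested gene of the 10 lipogenic genes and 6 neighbouring lists (y axis) at 3 and 6 weeks. Filled points passed an adjusted p of 0.05 and black lines are list medians. The lipogenic genes have medians of -2.05 and -1.44, and the neighbouring lists lie between -0.65 and 0.34.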

How the data were processed

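Poly(A) RNA of snap-frozen whole thyroids was sequenced as paired reads. Per the labels, the authors' tools were Trim Galore 0.6.7, STAR and DESeq2 1.36.0 in R 4.1.0, with mouse build mm39. The deposited raw counts per gene were used for all main values. The deposited normalized signal values are those counts divided by 1 size factor per library, and were used in an alternative only. Gene IDs without version were matched to symbols (20841 of 21640). Exonic lengths, of all annotated exons of a gene merged, came from GENCODE M21 and promoter windows from RefSeq, both GRCm38 and not the build of the counts.

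Groups were taken from the labels. Each week was fitted alone with edgeR 4.0.16 (R 4.3.3, filterByExpr, TMM, glmQLFit and glmQLFTest), and the diet-by-week term over all 16 libraries. SE is the absolute log2 fold change over the square root of F. Log2 CPM used a prior count of 2. Alternatives were DESeq2 1.42.0, its size factors, limma 3.58.1 on log2(normalized value + 1), other filters, scaling to thyrocyte genes, a joint fit, marker covariates and each mouse left out. The edgeR fits were tested on simulated counts.

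The 10 genes and all lists were chosen with earlier results of these data known. Named beside them were at most 4 called genes of largest change per list and week, and the 5 genes most like Mlxipl and Srebf1. Mlx, Txnip, G6pdx, Scd2, Fabp4 and Ucp1 were added for their roles after values were seen. Listed genes not in the named table (such as Pklr and Fgf21) were not analysed here. Some genes that the naming rule selects are not reported here. Values relative to adipocyte markers, and the fits with the brown adipocyte mean or with M22 alone, were chosen after seeing the data. The mice are separate animals, and no 2 libraries of a group agreed within counting noise (chi-square per gene at least 15.1). The study states 3 CD mice at 6 weeks without naming them, and all 4 deposited were used. Library names of the 2 weeks begin with different numbers.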

Additional observations from a re-analysis of the deposited data

Results flagged for a closer look

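Of 40 sets of 4 mice (10 genes in 4 groups), 6 held a mouse whose gap to the nearest other, as a share of the range, exceeded Dixon's 95% critical value, and chance flags about 1 set in 20. Among CD 3W mice, M96 was high in Mlxipl (30.5 CPM, others 21.4 to 22.8) and in Thrsp (276 CPM, others 155 to 171), and M55 was high in Elovl6 (291 CPM, others 114 to 135). Among CD 6W mice, M22 was high in Srebf1 (138.5 CPM, others 60.2 to 72.0) and M43 in Acaca (249 CPM, others 108 to 125). Among HF+SD 3W mice, M7 was high in Fasn (204.5 CPM, others 139 to 150). Of the 6, 5 were in CD groups and all were the highest mouse of their set.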

How the results depend on the processing

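The 7 genes called at 6 weeks and the 7 at 3 weeks kept their direction under every alternative run. DESeq2 called 8 lower at each week, where it called 12.3% and 7.48% of all genes lower. With the white adipocyte mean as a covariate the counts were 1 and 0, and with the brown adipocyte mean, added after seeing the data, 0 and 0 (edgeR), where the white fit called 128 of 18249 and 13 of 17238 genes and the brown fit 0 and 7. In those fits diet and marker level cannot be told apart. Leaving out each mouse gave 6 to 8 genes at 6 weeks, 7 to 9 at 3 weeks and 0 to 3 for the diet-by-week term. That term was called for 1 gene (Mlxipl) by DESeq2 (8.3% of all genes), for 1 (Mlxipl) with at least 10 counts in every library (0.986%) and for 3 (Mlxipl, Acss2, Thrsp) when scaled to thyrocyte genes (12.9%), where the median gene is at -0.46 in that term. Direction changed only in differences that were not called. Srebf1 at 6 weeks was 0.06 with the white and 0.68 with the brown adipocyte covariate and -0.23 to 0.29 with mice left out, and at 3 weeks -0.17 with the white adipocyte covariate. Me1 at 6 weeks was 0.01 with M22 as the only CD mouse. The diet-by-week difference of Fasn was 0.00 by DESeq2, 0.02 and 0.18 with the white and brown covariates and -0.26 to 0.13 with mice left out; that of Acaca was -0.42 with thyrocyte scaling and -0.09 to 0.37 with mice left out; that of Elovl6 was -0.10 with the muscle covariate, -0.20 with thyrocyte scaling and -0.23 to 0.38 with mice left out. Srebf1 ranged from -0.40 to 0.10 with mice left out, Scd1 was 0.09 with the brown covariate and Me1 0.06 with the muscle covariate. The cause was not tested. No paired analysis was possible because each mouse is in 1 group and the labels give the groups no shared replicate numbers.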
